A study of Homo sapiens with 9 samples.

Results

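The 10 genes of cytosolic and mitochondrial heat shock proteins were read in every library of an RNA-seq series on A549, a human lung adenocarcinoma line. The genes were chosen by their symbols, and with earlier results of these data known. All 10 were found among the 26364 gene names of the count table, and all 10 passed the filter on low counts in every comparison. The 9 libraries fell into 4 groups. Control was A549 labelled as wild type (2 libraries). LA was A549 carrying the LOC388942-ALK fusion, made with a guide against ALK and a guide against LOC388942 in Cas9-expressing A549 cells and grown from single cells (2 libraries; how many clones they represent is not stated). sgScr was LA cells with a scramble guide (3 libraries), and sgFOS was LA cells with guides against FOS (2 libraries). The study used 2 guides against FOS, and the labels do not say which of them each sgFOS library carries. The labels name no drug treatment for any group. They do not say whether replicates came from separate cultures, so the p-values measure only the spread between these libraries, which may be technical.

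Heat shock proteins are chaperones that bind unfolded or partly folded proteins. HSP70 proteins bind short exposed stretches with the help of J-domain proteins, which start their ATP cycle, and of nucleotide exchange factors such as HSP110, which end it. HSP90 receives clients from HSP70, among them many protein kinases, and the small heat shock protein HSPB1 holds unfolded proteins without using ATP. In mitochondria, the HSP60 chaperonin HSPD1 forms a folding chamber that its cochaperonin HSPE1 closes. Many of these genes are transcribed under heat shock factor 1 (HSF1), which binds repeated GAA units in alternating orientation.

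The stretches upstream of 5 of the genes, picked by hand, are given as examples that each hold at least a pair of such units. HSP90AA1, HSP90AB1 and HSPD1 also held such pairs in a promoter window and are not printed. The part of these units in the levels below was not tested. Each line holds the 200 bases before the gene start in RefSeq on GRCh38.p14, written 5′ to 3′ on the strand of the gene. Capitals mark GAANNTTC or TTCNNGAA, a pair of inverted GAA units. The stretches lie at chr6:31815343-31815542 (HSPA1A), chr6:31827538-31827737 (HSPA1B), chr7:76302473-76302672 (HSPB1), chr11:123062137-123062336 on the minus strand (HSPA8) and chr19:14518398-14518597 on the minus strand (DNAJB1).
HSPA1A: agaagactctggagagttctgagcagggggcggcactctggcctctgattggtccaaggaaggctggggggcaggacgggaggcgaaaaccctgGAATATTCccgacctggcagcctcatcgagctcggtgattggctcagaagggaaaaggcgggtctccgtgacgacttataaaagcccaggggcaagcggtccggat
HSPA1B: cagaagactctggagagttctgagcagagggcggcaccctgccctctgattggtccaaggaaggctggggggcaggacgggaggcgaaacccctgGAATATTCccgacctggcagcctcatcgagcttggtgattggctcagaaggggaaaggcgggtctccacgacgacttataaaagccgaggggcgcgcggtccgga
HSPB1: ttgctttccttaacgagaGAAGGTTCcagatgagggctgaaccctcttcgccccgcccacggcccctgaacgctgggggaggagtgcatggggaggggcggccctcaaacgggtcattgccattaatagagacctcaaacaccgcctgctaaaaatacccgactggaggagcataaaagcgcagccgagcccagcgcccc
HSPA8: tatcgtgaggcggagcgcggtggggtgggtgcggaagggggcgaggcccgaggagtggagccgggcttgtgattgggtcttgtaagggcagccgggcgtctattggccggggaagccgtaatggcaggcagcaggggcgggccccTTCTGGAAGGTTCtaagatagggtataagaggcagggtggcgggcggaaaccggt
DNAJB1: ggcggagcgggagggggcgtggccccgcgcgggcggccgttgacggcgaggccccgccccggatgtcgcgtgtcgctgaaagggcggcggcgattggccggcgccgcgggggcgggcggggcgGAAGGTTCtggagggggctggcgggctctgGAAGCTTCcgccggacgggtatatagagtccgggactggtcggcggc

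The HSPA1A and HSPA1B stretches were identical in 93.5% of 201 aligned columns and held the same 8 capital letters. In HSPA8 a TTCNNGAA and a GAANNTTC overlap and form a run of 3 units. The windows of HSPA1A, HSPA1B, HSPB1 and DNAJB1 held no such run. Over 35116 RefSeq promoter windows of 300 bases, 13.5% held GAANNTTC or TTCNNGAA (each reads the same on both strands) and 0.49% held a run of 3 units on either strand. HSP90AA1, HSP90AB1 and HSPD1 each held both the shorter motif and a run of 3 units in 1 of their windows, as HSPA8 did in its own, and for genes with several windows the one with most matches was taken. The letters did not occur in the windows of HSPH1 and HSPE1. On chromosome 2, the HSPD1 window that held them (197499791 to 197500090) lies just before the HSPE1 window (197500129 to 197500428). Their absence from HSPE1 thus depends on where the windows were cut. A match is a description of the letters only, and no binding was measured here.

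Total counts ran from 14507228 to 20456341 per library, and counts of single heat shock protein genes ran from 199 (HSPE1, an LA library) to 72126 (HSP90AA1). FOS, the targeted gene, had 10.5 and 9.14 CPM (counts scaled to library size, TMM-normalized) in control, 336 and 91.6 in LA, 198 to 205 in sgScr and 68.6 and 74.3 in sgFOS, so the guides against FOS went with a lower FOS level in both libraries. The labelled cell type fitted its markers, since 5 of 5 epithelial markers were above 3 counts in every library. Their summed level was 10360 to 17324 CPM in control, 5542 to 10239 in LA, 4742 to 5061 in sgScr and 5527 to 5699 in sgFOS. Most of that sum was KRT8 and KRT18, with means of 8188 and 5512 CPM in control and 3020 and 1690 in sgScr. KRT19 was also lower in sgScr than in control (means 96.48 and 115.6). The means of CDH1 (70.33 and 19.98) and EPCAM (11.36 and 6.654) were higher in sgScr than in control. Of 5 leukocyte markers 3 were at 0 in every library, and the list summed to 37.7 to 74.7 CPM, that of fibroblasts to 13.2 to 24.7 and that of endothelial cells to at most 1.05. The part of these marker levels in the results was not tested, and in bulk RNA fewer cells that express a gene and less RNA per cell cannot be told apart. Replicates were unequally alike: chi-square divided by its degrees of freedom, for pairs of libraries of a group, was 125 in control and 58.1 in LA but 1.74 to 2.65 within sgScr and sgFOS. Across genes, log2 fold changes followed transcript length in LA against control (Spearman 0.56) and sgScr against control (0.58), and not in sgFOS against sgScr (−0.02) or sgScr against LA (−0.10). With GC content, Spearman was −0.31 in LA against control and −0.38 in sgScr against control. It was 0.26 in sgFOS against sgScr and −0.07 in sgScr against LA. Each comparison was therefore also fitted after each library had been corrected on the length and GC content of transcripts. Corrected values are given for part of the calls and counts that they changed.

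The inducible HSP70 genes stood apart from the others. HSPA1A and HSPA1B encode the same stress-inducible HSP70 protein in neighbouring genes (GRCh37, chromosome 6, 31783320 to 31785723 and 31795515 to 31798031, both on the plus strand). HSPA1A was read at 354 and 304 CPM in control, 323 and 248 in LA, 943, 982 and 1061 in sgScr and 906 and 914 in sgFOS. All 5 sgScr and sgFOS libraries lay above all 4 control and LA libraries, with no library between 354 and 906 CPM. HSPA1B followed it closely, at 302 and 289 CPM in control, 313 and 226 in LA, 863, 912 and 973 in sgScr and 821 and 826 in sgFOS. Of the 150-base windows of the HSPA1A transcript, 69.6% also occur in another gene, so the split of reads between the copies is uncertain. Their sum does not depend on that split: 655 and 593 CPM in control, 636 and 474 in LA, 1806 to 2034 in sgScr and 1727 and 1740 in sgFOS. It does depend on whether shared reads were counted at all, which is not given.

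In the constitutive HSP70 gene HSPA8 the sgScr and sgFOS libraries did not lie above the others. HSPA8 (GRCh37, chromosome 11, 122928197 to 122933938, minus strand) encodes the HSP70 of unstressed cells, which also uncoats clathrin vesicles. It was read at 2239 and 2396 CPM in control, 1697 and 1242 in LA, 2055, 2097 and 2126 in sgScr and 2163 and 2065 in sgFOS. Control was highest, LA was lowest, and the ranges of sgScr and sgFOS overlapped. The ratio of HSPA8 counts to the summed HSPA1A and HSPA1B counts fell into a separate range in each group: 3.42 and 4.04 in control, 2.67 and 2.62 in LA, 1.05 to 1.14 in sgScr and 1.25 and 1.19 in sgFOS. The size of this ratio also depends on whether reads shared by HSPA1A and HSPA1B were counted.

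**Figure D1:**
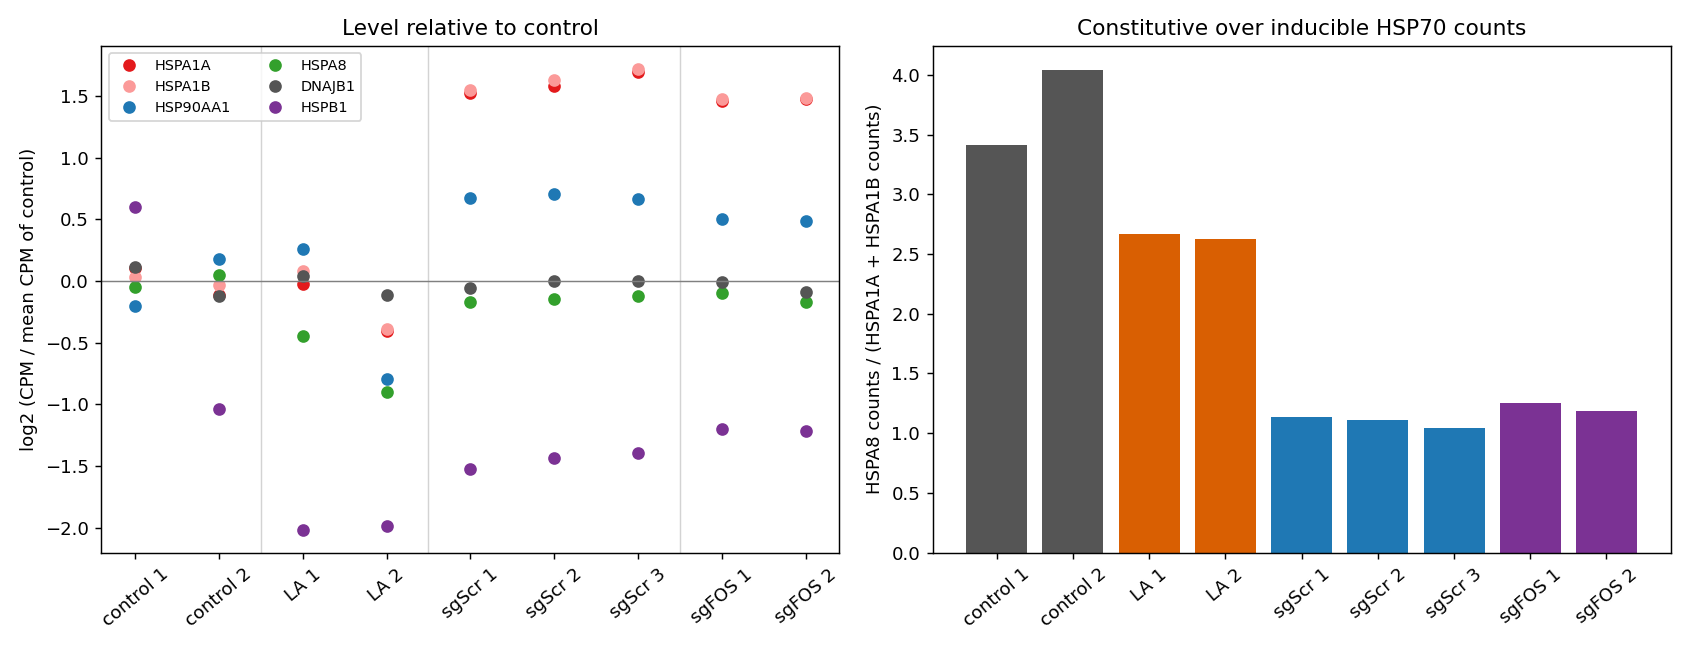
Left, log2 ratio of the CPM of 6 genes in each library (points) to the mean CPM of the 2 control libraries. Right, counts of HSPA8 divided by the summed counts of HSPA1A and HSPA1B in each library (bars, one library each). HSPA1A and HSPA1B lie highest in the 5 sgScr and sgFOS libraries, where the ratio on the right is 1.05 to 1.25 against 2.62 to 4.04 in control and LA.

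The cofactors of HSP70 differed from each other. DNAJB1, the main stress-inducible J-domain partner of HSP70, was read at 227 and 192 CPM in control, 215 and 194 in LA, 201 to 209 in sgScr and 208 and 197 in sgFOS. Its 4 groups overlapped, and its fitted difference was at most 0.07 on the log2 scale in size in any of the 4 comparisons, with the smallest adjusted p at 0.823. HSPH1, an HSP110 exchange factor for HSP70, was read at 140 and 246 CPM in control, 271 and 191 in LA, 315 to 324 in sgScr and 320 and 311 in sgFOS. Here the sgScr and sgFOS libraries again lay above the others, and the control libraries were far apart.

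Both cytosolic HSP90 genes were also highest in the sgScr and sgFOS libraries. HSP90AA1, the more inducible of the pair, was read at 1884 and 2450 CPM in control, 2596 and 1251 in LA, 3445 to 3542 in sgScr and 3076 and 3034 in sgFOS. HSP90AB1, the more constitutive one, was read at 1583 and 1804 CPM in control, 1861 and 1166 in LA, 2562 to 2577 in sgScr and 2431 and 2370 in sgFOS. In both genes the LA libraries spanned the control libraries. The ratio of HSP90AA1 to HSP90AB1 counts ran only from 1.07 to 1.40 over the 9 libraries.

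HSPB1 was highest in control, as were HSPA8 and HSPE1. The gene (GRCh37, chromosome 7, 75931990 to 75933612, plus strand) has a short, GC-rich transcript of 812 bases with 65.5% GC. It was read at 1369 and 442 CPM in the control libraries, which differed from each other more than any other pair of replicates of this gene. LA was at 224 and 228 CPM, sgScr at 315, 334 and 344 and sgFOS at 395 and 389. The 4 groups did not overlap, in the order LA, sgScr, sgFOS and control. The share of all genes whose groups separate in this way was not counted. With the length and GC correction the log2 fold change of HSPB1 was 0.24 in sgScr against control and −0.44 in LA against control, neither called.

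The mitochondrial chaperonin genes lie next to each other on chromosome 2, and their annotated loci overlap on opposite strands (GRCh37, HSPD1 at 198351308 to 198381461 on the minus strand and HSPE1 at 198364864 to 198368173 on the plus strand). HSPD1 was read at 920 and 1082 CPM in control, 1090 and 532 in LA, 1419 to 1450 in sgScr and 1381 and 1344 in sgFOS. HSPE1 was read at 61.0 and 44.3 CPM in control, 22.5 and 10.98 in LA, 29.9 to 33.4 in sgScr and 32.8 and 28.6 in sgFOS. So HSPD1 was highest in the sgScr and sgFOS libraries, whereas HSPE1 was highest in control. The ratio of the 2 levels per kilobase of transcript was 3.39 and 5.49 in control and 9.46 to 10.9 in the other 7 libraries. The HSPD1 transcript is longer, at 2540 bases, and fold changes against control followed length. With the length and GC correction the log2 fold change of HSPE1 moved from −0.73 to −0.05 in sgScr against control and from −1.69 to −0.84 in LA against control. That of HSPD1 moved from 0.50 to 0.52 and from −0.34 to −0.30. HSPE1 has a transcript of only 570 bases, of whose 150-base windows 10.5% also occur in the readthrough gene HSPE1-MOB4, which had 0 counts in the table.

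**Figure D2:**
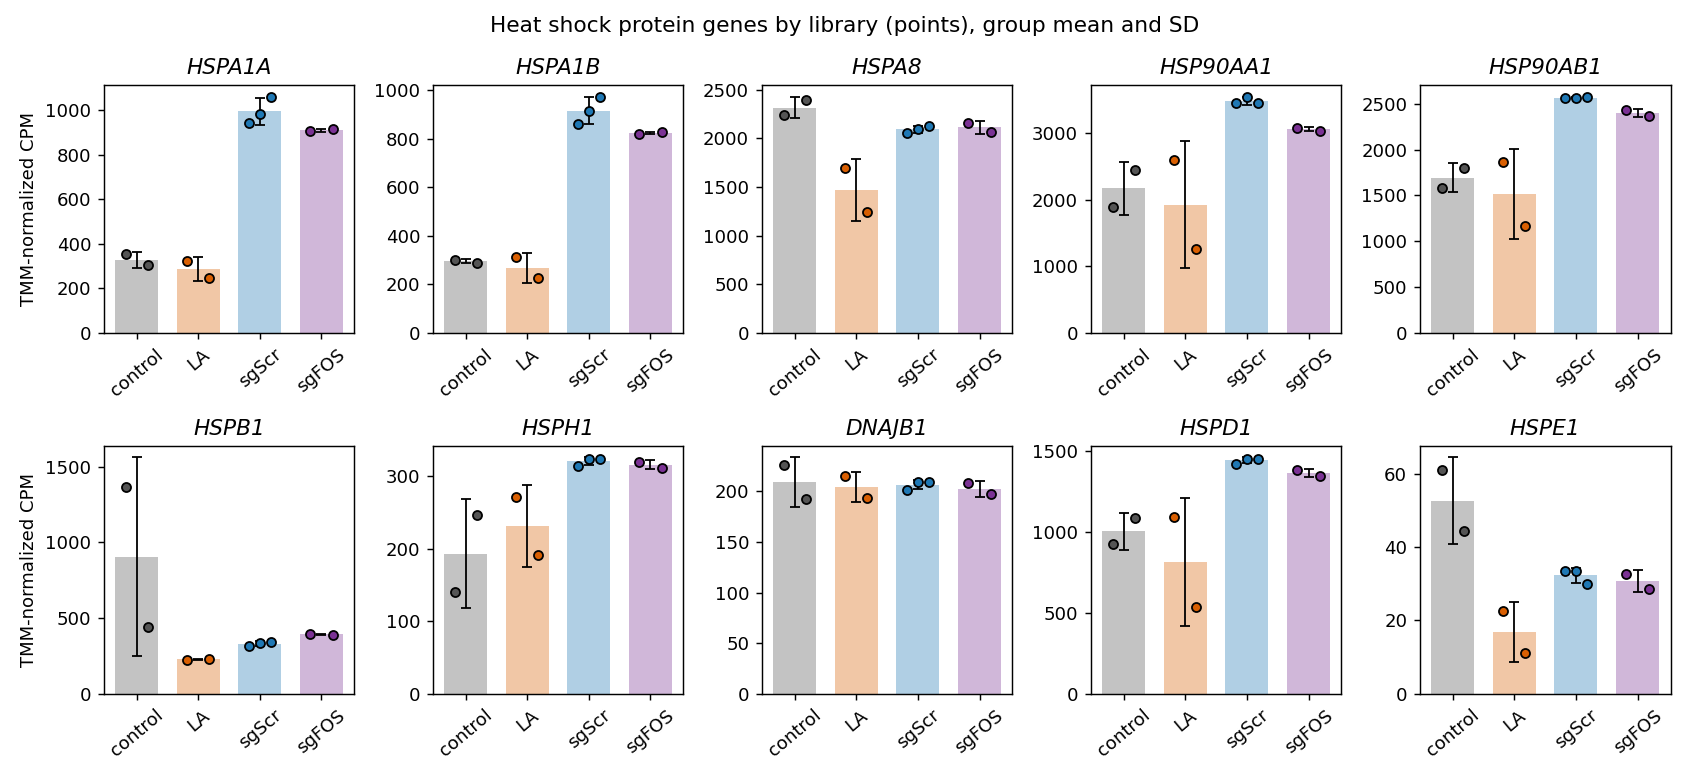
TMM-normalized CPM of the 10 genes in the 9 libraries. Points are libraries, bars are group means and error bars are SD (control, LA and sgFOS n = 2, sgScr n = 3), and each panel has its own vertical scale from 0. HSPA1A and HSPA1B lie at 821 CPM or more in every sgScr and sgFOS library and at 354 CPM or less in every control and LA library.

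Over all genes of the group, 6 had every sgScr and sgFOS library above every control and LA library (HSPA1A, HSPA1B, HSP90AA1, HSP90AB1, HSPH1 and HSPD1), the other 4 overlapped, and 0 lay wholly below. Of all 14849 genes tested in this way, 9.21% lay wholly above and 6.2% wholly below. The same count of 6 was obtained with DESeq2 size factors and with library size alone. HSPA1A and HSPA1B are counted separately in it, although the split of reads between them is uncertain. The summed level of the 10 genes was 9078 and 9251 CPM in control, 8613 and 5288 in LA, 12156 to 12538 in sgScr and 11734 and 11480 in sgFOS. The labels name no batch, so whether sgScr and sgFOS were made apart from control and LA is not known, and such a split and the guide could not be told apart.

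Genes were ranked on CPM per kilobase of their longest annotated protein-coding transcript, 4273 bases for DNAJB1 and 5244 for HSPH1. The ranks depend on that choice and, for HSPA1A and HSPA1B, on how reads shared between copies were counted, which is not given. The order of mean levels in control was HSPB1 (1115), HSPA8 (1005), HSP90AB1 (633), HSP90AA1 (617), HSPD1 (394), HSPA1A (137), HSPA1B (117), HSPE1 (92.3), DNAJB1 (49.0) and HSPH1 (36.9). In control, HSPB1 and HSPA8 did not differ beyond the spread of HSPB1, nor did the HSP90 genes from each other. In sgScr the order was led by HSP90AA1 (991), HSP90AB1 (960) and HSPA8 (908), and HSPA1A (415) came close to HSPB1 (407). The lowest 3 there were HSPH1 (61.2), HSPE1 (56.6) and DNAJB1 (48.3).

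LA against control asks what the fusion line carries relative to A549. The fusion, Cas9, the guides that made it and growth from single cells cannot be told apart here. Of the 10 genes, 2 were called lower at an adjusted p under 0.05 with edgeR's quasi-likelihood test (background 9.94% of 14425 genes), namely HSPB1 and HSPE1. HSPB1 was lower by a log2 fold change of −2.04 ± 0.49 (SE, adjusted p = 0.00597) and HSPE1 by −1.69 ± 0.45 (adjusted p = 0.0114). None was called higher (0, background 9.57%), nor was any at an unadjusted p under 0.05 or with DESeq2. Both LA libraries lay below both control libraries in 3 of the 10 genes (30.9% of all genes) and above them in 0 (32.7% of all genes). After that length and GC correction neither call was kept: HSPB1 was at −0.44 (adjusted p = 0.36) and HSPE1 at −0.84 (adjusted p = 0.107). Without control replicate 1, the library with the high HSPB1 level, HSPB1 was at −1.03 (adjusted p = 0.0744), and leaving out either LA library ended both calls. HSPA8 was lower in both LA libraries than in both control libraries but was not called (−0.69 ± 0.44, adjusted p = 0.269). In the fit of all 9 libraries it was called (−0.67, adjusted p = 0.0124). The inducible HSP70 genes had log2 fold changes of −0.24 ± 0.41 (HSPA1A) and −0.17 ± 0.41 (HSPA1B), and HSP90AA1, HSP90AB1, HSPH1 and HSPD1 lay between −0.34 and 0.22. These differences are smaller than their SE. The median over the 10 genes was −0.22 beside 0.04 over all genes tested.

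sgFOS against sgScr asks what guides against FOS change in LA cells. FOS itself was lower by −1.48 ± 0.04 (adjusted p = 2e-25). Of the heat shock protein genes, 3 were called lower (background 10.5% of 14196 genes) and 1 higher (background 12.2%). HSP90AA1 was lower by −0.17 ± 0.03 (adjusted p = 1.09e-04), a level of 0.886 times that of sgScr. HSPA1B was lower by −0.14 ± 0.04 (adjusted p = 0.00547) and HSPA1A by −0.12 ± 0.04 (adjusted p = 0.0219). HSPB1 was higher by 0.26 ± 0.04 (adjusted p = 9.08e-07), or 1.20-fold. All 4 differences were small, and none reached a log2 fold change of 0.5. Both sgFOS libraries lay below all 3 sgScr libraries in 5 of the 10 genes (23.8% of all genes) and above them in 1 (24.7%). HSP90AA1 and HSPB1 were also called with DESeq2, with each library left out and with the length and GC correction. The HSPA1A and HSPA1B calls were lost with DESeq2 (adjusted p = 0.274 and 0.157). HSPA1A was lost in 4 of the 5 fits that left out a library, and HSPA1B without sgFOS replicate 1 (adjusted p = 0.059). No gene at all was called (0 higher and 0 lower with edgeR, 310 and 134 at an unadjusted p under 0.05) when the 9 libraries were fitted together, and that fit takes its spread from control and LA too. HSP90AB1 (−0.08 ± 0.03, adjusted p = 0.0601) and HSPD1 (−0.07 ± 0.03, adjusted p = 0.15) lay below sgScr in both sgFOS libraries but were not called, although HSP90AB1 was with DESeq2 (adjusted p = 0.00327). HSPA8, HSPH1, DNAJB1 and HSPE1 overlapped between the groups, with differences of −0.06 to 0.03.

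sgScr against LA compares the same fusion with and without a scramble guide, and the guide cannot be told apart from any unlabelled batch. The inducible HSP70 genes rose most: HSPA1A by 1.76 ± 0.14 on the log2 scale (3.39-fold, adjusted p = 0.00183) and HSPA1B by 1.73 ± 0.15 (3.31-fold, adjusted p = 0.00266). Summed as 1 gene they rose by 1.75 (adjusted p = 0.00217). HSP90AB1 (0.72 ± 0.19, adjusted p = 0.0419) and HSPB1 (0.51 ± 0.08, adjusted p = 0.0126) were called higher too, so that 4 of 10 were called higher (background 10.6% of 14521 genes) and 0 lower (background 12.3%), with 0 lower also at an unadjusted p under 0.05 and with DESeq2. All 9 genes other than DNAJB1 had each sgScr library above each LA library, where 27.9% of all genes did, and 0 lay wholly below, where 28.6% did. HSPE1 (0.91 ± 0.28), HSP90AA1 (0.82 ± 0.28), HSPD1 (0.79 ± 0.28), HSPA8 (0.47 ± 0.14) and HSPH1 (0.44 ± 0.15) had adjusted p between 0.0556 and 0.0873. These values rest on how far the LA libraries lay apart. Without LA replicate 2 and without LA replicate 1 they were 0.50 and 1.52 for HSPE1, 0.40 and 1.44 for HSP90AA1, 0.37 and 1.40 for HSPD1, 0.27 and 0.72 for HSPA8 and 0.22 and 0.71 for HSPH1, and 0.44 and 1.10 for HSP90AB1. With DESeq2, 9 genes were called, and with the length and GC correction 8, all but HSP90AA1 and DNAJB1, with HSPD1 at 0.82, HSPE1 at 0.77, HSPH1 at 0.50 and HSPA8 at 0.47 (adjusted p from 0.0183 to 0.0475). The HSPA1A and HSPA1B calls held in all alternatives, while those of HSP90AB1 and HSPB1 were lost when any sgScr library was left out, and that of HSPB1 also in the fit of all 9 libraries (adjusted p = 0.401). The median log2 fold change of the 10 genes was 0.76 beside −0.02 over all genes tested.

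sgScr against control sets LA cells with a scramble guide against A549. The fusion, the way its cells were made, the scramble guide and any unlabelled batch cannot be told apart there. It shares its libraries with the comparisons above, so its values are no separate evidence. HSPA1A was higher by 1.57 ± 0.16 (2.98-fold, adjusted p = 0.00436) and HSPA1B by 1.61 ± 0.15 (3.05-fold, adjusted p = 0.00426). HSP90AA1 (0.66 ± 0.17, adjusted p = 0.0257), HSP90AB1 (0.58 ± 0.14, adjusted p = 0.023) and HSPD1 (0.50 ± 0.15, adjusted p = 0.0375) were called higher as well, which made 5 of 10 (background 19.8% of 14482 genes). HSPB1 (−1.47 ± 0.43, adjusted p = 0.0379) and HSPE1 (−0.73 ± 0.18, adjusted p = 0.0244) were called lower (background 21.7%). All 3 sgScr libraries lay above both control libraries in 6 of the 10 genes (35.9% of all genes) and below them in 3 (33.1%). HSPB1 was at −0.43 without control replicate 1 and at −2.09 without control replicate 2, and HSPE1 at −0.47 without control replicate 1. The length and GC correction kept the 5 higher calls, with HSPA1A at 2.05, and ended both lower ones, with HSPB1 at 0.24 (adjusted p = 0.283) and HSPE1 at −0.05 (adjusted p = 0.789). HSPA8 (−0.17 ± 0.13), HSPH1 (0.71 ± 0.25, adjusted p = 0.0678) and DNAJB1 (−0.04 ± 0.14) were not called. Leaving out 1 sgScr library ended the HSPA1A call each time, with adjusted p from 0.0506 to 0.0541 and log2 fold changes from 1.52 to 1.62. The calls of HSP90AA1, HSP90AB1, HSPD1, HSPB1 and HSPE1 also ended each time, and that of HSPA1B without sgScr replicate 2 or 3. In the fit of all 9 libraries HSP90AA1 (adjusted p = 0.0716) and HSPD1 (adjusted p = 0.141) were not called.

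**Figure D3:**
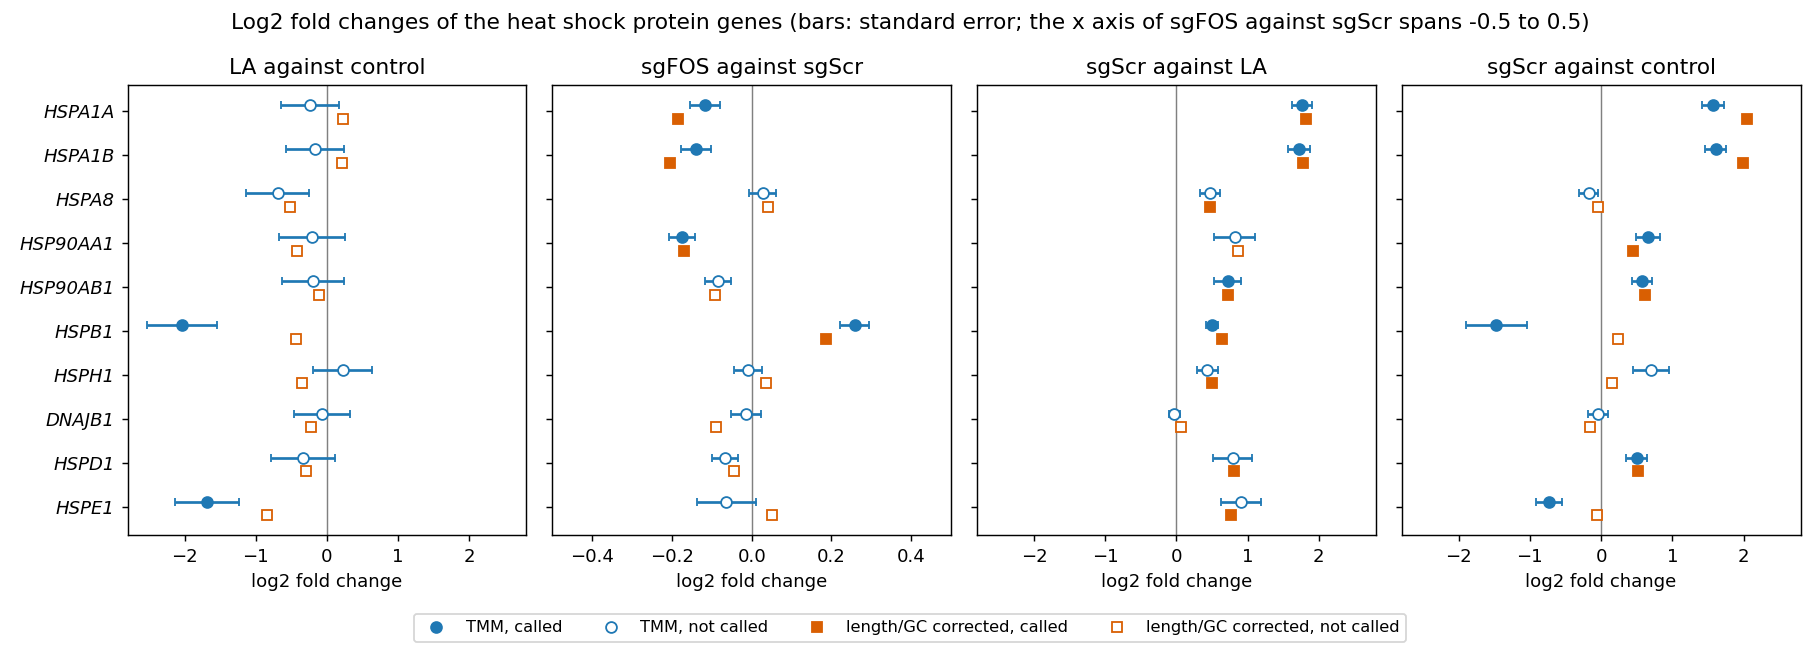
Log2 fold changes of the 10 genes in 4 comparisons (circles, edgeR with TMM normalization, bars are SE) and with each library corrected for transcript length and GC content (squares). Filled symbols were called at an adjusted p under 0.05; HSPB1 moves from −2.04 to −0.44 in LA against control, while HSPA1A stays between 1.57 and 2.05 in sgScr against LA and sgScr against control.

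The heat shock factor genes HSF1 and HSF2 were not called in any of the 4 comparisons with edgeR and TMM. HSF1 was read at 140 and 109 CPM in control, 93.0 and 96.3 in LA, 88.4 to 93.6 in sgScr and 96.0 and 97.3 in sgFOS, with adjusted p from 0.0593 to 0.47 over the 4 comparisons. HSF2 was read at 8.48 to 20.02 CPM, with adjusted p from 0.0516 to 0.837. HSF1 was called lower in sgScr against control with upper quartile normalization (−0.53, adjusted p = 0.0363), in the fit of all 9 libraries (−0.48, adjusted p = 0.0289) and without control replicate 1 or 2 (−0.26 and −0.66), and was at 0.30 with the length and GC correction. HSF2 was called lower in sgFOS against sgScr with upper quartile normalization (−0.29, adjusted p = 0.0448) and without sgScr replicate 3 (−0.31, adjusted p = 0.038). Leaving out an LA library gave it opposite called signs in sgScr against LA (0.39 and −0.42), and without control replicate 2 it was called higher in sgScr against control (0.81). HSBP1, which encodes a small protein that binds HSF1, was called lower in LA against control (−1.20 ± 0.40, adjusted p = 0.0364) and in sgScr against control (−0.78 ± 0.13, adjusted p = 0.00895), with levels of 196 and 202 CPM in control, 98.0 and 79.6 in LA and 112 to 121 in the 5 sgScr and sgFOS libraries.

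Further chaperone and cochaperone lists were read in the same fits. In sgScr against LA, 7 of 17 tested HSP90 and HSP70 cochaperones were called higher and 0 lower, beside 10.6% and 12.3% of all genes. The number called lower was 0 also at an unadjusted p under 0.05 and with DESeq2, and the median log2 fold change was 0.47. With the length and GC correction 13 of the 17 were called higher. In sgScr against control, by contrast, 1 of 17 was called higher and 2 lower, beside 19.8% and 21.7% of all genes. The median there was 0.02, and 4 were called higher and 2 lower with the correction. FKBP4, an HSP90 cochaperone of steroid receptor complexes, rose by 1.24 ± 0.21 (adjusted p = 0.0126), from 207 and 124.4 CPM in LA to 394 to 409 in sgScr. PPID, a cyclophilin of the same complexes, rose by 0.97 ± 0.19 (adjusted p = 0.0183), from 20.6 to 32.2 CPM in LA to 51.0 to 55.5 in sgScr. In control FKBP4 was at 245 to 370 CPM and PPID at 44.7 to 47.8. The exchange factor and HSF1 target BAG3 rose by 0.59 ± 0.11 (adjusted p = 0.0181), from 107 and 87.5 CPM to 142 to 155, whereas its relative BAG1 fell by 0.60 (SE 0.08, adjusted p = 0.0061). Among J-domain proteins, 1 of 10 was called (DNAJB6, 0.34 ± 0.08), and DNAJA1, a J-domain partner of HSPA8, was at −0.0011 ± 0.12. HSPA1L, an HSP70 gene beside HSPA1A on the opposite strand, was called higher (1.13 ± 0.30, adjusted p = 0.0431) at a mean of 45.6 counts. Of 3 other small heat shock proteins tested, CRYAB was called lower at a mean of 7 counts, and 0 were called higher, as at an unadjusted p under 0.05 and with DESeq2.

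Chaperones of other compartments were read beside the 10.6% of all genes called higher and 12.3% called lower in that comparison. Of 13 endoplasmic reticulum chaperones, 9 were called higher, with a median of 0.55. PDIA4, a protein disulfide isomerase, rose by 1.03 ± 0.08 (adjusted p = 0.00179), from 225 and 224 CPM in LA to 473 to 477 in sgScr, and the lectin chaperone CALR by 0.91 ± 0.09 (adjusted p = 0.00336). Of 16 other mitochondrial chaperones and proteases, 3 were called higher, among them GRPEL1 (0.53 ± 0.12) and the protease LONP1 (0.44 ± 0.09), and 6 with the length and GC correction. The mitochondrial HSP70 gene HSPA9 was at 0.31 ± 0.10 (adjusted p = 0.0759). Of the 6 prefoldin subunits, which carry unfolded actin and tubulin to the TRiC chaperonin, 3 were called higher, with PFDN6 at 1.58 ± 0.13 and PFDN2 at 1.54 ± 0.13. Of 9 TRiC subunits, 2 were called higher (CCT7 at 0.71 ± 0.10 and CCT3 at 0.47 ± 0.13, the latter not called with the length and GC correction) and 1 lower (CCT6B at −2.85 ± 0.42, with a mean of 41.8 counts). Control had a higher mean CPM than sgScr in CCT7 (891 and 768), CCT3 (621 and 563), GRPEL1 (68.0 and 52.9), LONP1 (205 and 139) and PFDN2 (64.0 and 46.1). Its mean was lower than that of sgScr in PDIA4 (234 and 474), CALR (430 and 692) and PFDN6 (29.1 and 30.0).

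In LA against control the called genes of these lists were mostly lower. Over all genes 9.94% were called lower and 9.57% higher in that comparison. Prefoldin, with a median of −1.80, had 4 of 6 subunits called lower, led by PFDN5 (−2.17 ± 0.43) and PFDN2 (−2.10 ± 0.44), and 3 with the length and GC correction, where PFDN5 was at −1.06 and PFDN2 at −0.94. Of 17 cochaperones, with a median of −0.84, 4 were called lower, among them FKBPL (−1.95 ± 0.52) and NUDC (−1.62 ± 0.44), and 1 with the correction. HSPBP1, an exchange factor that inhibits HSP70, was lower by −1.60 ± 0.42 (adjusted p = 0.011) and not with the correction (−0.70, adjusted p = 0.0879). The mitochondrial import and protease genes DNAJC19 (−1.36 ± 0.45) and CLPP (−1.22 ± 0.41) were called lower, and CLPP was at −0.87 with the correction (adjusted p = 0.0507). In the endoplasmic reticulum list DNAJC3, an inhibitor of the kinase PERK, was called higher (1.36 ± 0.41) and SDF2L1 lower (−1.52 ± 0.45), and neither was called with the correction.

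In sgFOS against sgScr the largest called difference of these lists with at least 50 counts was in the small heat shock protein HSPB8, the partner of BAG3 in selective autophagy. It was read at 10.9, 10.2 and 11.4 CPM in sgScr and 17.8 and 19.6 in sgFOS, higher by 0.80 ± 0.11 (adjusted p = 1.96e-07). In control it was at 7.23 and 5.84 CPM and in LA at 7.02 and 22.8, so the LA libraries differed from each other by more than sgFOS did from sgScr. BAG3 was higher by 0.15 ± 0.04 (adjusted p = 0.00639), and the J-domain genes DNAJC5 (0.34 ± 0.04) and DNAJB2 (0.29 ± 0.08) were higher too. FKBP5, a glucocorticoid-inducible HSP90 cochaperone, was lower by −0.34 ± 0.06 (adjusted p = 3.45e-05), and AHSA1, the activator of the HSP90 ATPase, by −0.13 ± 0.04 (adjusted p = 0.00966). The chaperonin subunit CCT8 (−0.12 ± 0.04) and the prefoldin subunit VBP1 (−0.13 ± 0.04) were the 1 called gene of their lists, as was the mitochondrial protease SPG7 (0.12 ± 0.04). Of the 13 endoplasmic reticulum chaperones 2 were called higher, among them SIL1 (0.21 ± 0.07), and 3 lower, among them PDIA6 (−0.15 ± 0.04). Over all genes 12.2% were called higher and 10.5% lower in that comparison. With the length and GC correction the calls of CCT8 (−0.09), VBP1 (−0.05), SPG7 (0.04), BAG3 (0.10), DNAJB2 (0.20) and SIL1 (0.16) were lost, with adjusted p from 0.0846 to 0.586.

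In sgScr against control, 6 of 13 endoplasmic reticulum chaperones (median 0.66) were called higher, led by HYOU1 (1.38 ± 0.22) and DNAJC3 (1.18 ± 0.20), and 8 with the length and GC correction. Over all genes 19.8% were called higher. BAG3 was higher by 0.51 ± 0.15 (adjusted p = 0.0405) and HSPB8 by 0.71 ± 0.19 (adjusted p = 0.0307). BAG1 (−1.18 ± 0.21) and HSPBP1 (−1.36 ± 0.25) were lower, as were 3 of 6 prefoldin subunits, led by PFDN4 (−1.52 ± 0.20), and 5 of 16 mitochondrial genes, among them HSCB (−1.10 ± 0.24), beside the 21.7% of all genes called lower. With the length and GC correction 2 prefoldin subunits were called higher and 2 lower, 3 mitochondrial genes were called lower, and HSCB was at −0.27 (adjusted p = 0.236). AFG3L2, a mitochondrial protease, was higher (1.12 ± 0.36), and CCT4 (−0.55 ± 0.14) and FKBPL (−1.48 ± 0.34) were lower, both not called with the correction (−0.52 and −0.59). HSPA4L, an HSP110 relative of HSPH1, was higher by 1.61 ± 0.50 (adjusted p = 0.0456) and by 0.72, not called, with the correction. FKBP5 was higher by 1.07 ± 0.22 (adjusted p = 0.0147) and by 0.28 with the correction, and was not called there.

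**Figure D4:**
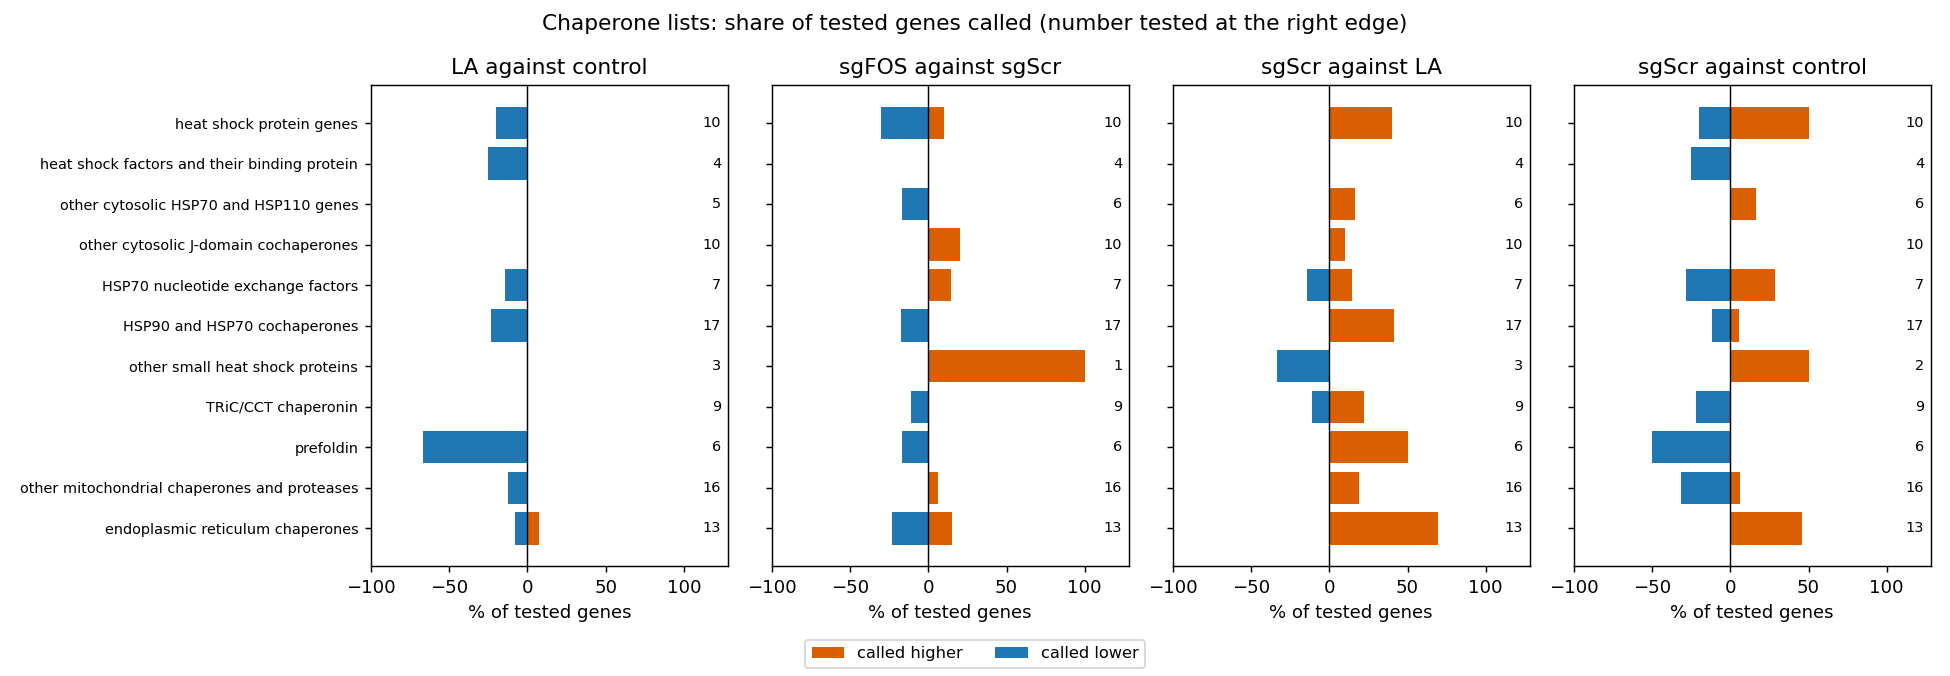
Share of the tested genes of each list called higher (orange, to the right) or lower (blue, to the left) at an adjusted p under 0.05, by comparison, with the number of tested genes at the right edge. In sgScr against LA, 4 of 10 heat shock protein genes, 7 of 17 cochaperones and 9 of 13 endoplasmic reticulum chaperones were called higher (10.6% of all genes). In LA against control 4 of 6 prefoldin subunits were called lower (9.94% of all genes).

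Across the 9 libraries, the genes varied together to different degrees. As a description over libraries that share groups and normalization, Pearson's r of log2 CPM was 1.00 between HSPA1A and HSPA1B, 0.99 between HSP90AA1 and HSPD1 and 0.99 between HSP90AA1 and HSP90AB1, while HSPB1 and HSPH1 ran against each other (−0.59). Most 150-base windows of HSPA1A also occur in another gene (69.6%), and the part of shared reads in its r with HSPA1B was not tested. Among 9808 other genes with a mean of at least 10 CPM, the 5 whose log2 CPM was most like the mean standardized profile of the group included SERBP1 (0.98), GINS1 (0.98), TMEM107 (0.98) and SEPHS2 (0.97).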

How the data were processed

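RNA-seq counts of A549 cells were deposited by the authors as whole-number raw counts per gene, without normalization. Per the methods and the submitters' processing notes, stranded mRNA libraries were sequenced as 150-bp paired-end reads, aligned to hg19 with STAR 2.7.10b, and compared with DESeq2 1.26.0. How reads were counted (program, annotation, strand) is not given in the sources used here, so near-identical copies and overlapping genes are uncertain. All per-sample columns were used.

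Groups and replicate numbers came from the labels. Each comparison was fitted on its own libraries with edgeR 4.0.16 in R 4.3.3 (TMM, filterByExpr, glmQLFit, glmQLFTest, two-sided), with Benjamini-Hochberg adjustment over all genes tested, and genes were called at an adjusted p under 0.05. CPM were TMM-normalized over all 9 libraries. Alternatives were DESeq2 1.42.0, other normalizations, no filter, all libraries in 1 fit, a replicate block, a loess correction on length and GC content of transcripts (span 0.5), the study's threshold (log2 fold change over 0.5 in size and unadjusted p under 0.05), summed copies and leaving out each library. Lengths, GC and positions came from GENCODE on GRCh37 (24688 of 26362 distinct names had a length, 98.2% of the genes tested in LA against control), and promoter sequences from RefSeq on GRCh38.p14. Scripts were tested on simulated data.

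All 10 genes are named, with HSF1, HSF2, HSPA9, BAG3, DNAJA1 and FOS. Of each further list, the 2 called genes per comparison with the largest difference are named, given 50 counts or more on average and groups that do not overlap, as are the 5 genes most like the group in profile, of which 1 is not reported here. CRYAB, CCT6B, HSPA1L and HSPA6 are outside this rule and were picked after their values were seen. The genes and lists were chosen with earlier results of these data known.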

Additional observations from a re-analysis of the deposited data

How the results depend on the processing

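Depth left every heat shock protein gene at 199 counts or more, and between control or LA libraries the spread was far above counting error. In LA against control, 1380 genes were called higher and 1434 lower. The study's threshold gave 2505 and 2472, all 9 libraries in 1 fit 3552 and 3247, the replicate block 791 and 728, the length and GC correction 756 and 917, and library size alone 682 lower. Of the heat shock protein genes, 2 were lower there, 1 with library size alone and 0 with the length and GC correction. In sgFOS against sgScr, 1731 genes were higher and 1490 lower. The study's threshold gave 530 and 288, DESeq2 993 and 832, and all 9 libraries in 1 fit 0 and 0. Its 1 higher and 3 lower heat shock protein genes became 0 and 0 under the study's threshold and in the fit of all 9, and 1 lower with the replicate block. In sgScr against LA, 1534 genes were higher and 1793 lower, against 569 and 867 in the fit of all 9 and 511 and 719 with the replicate block. Its 4 higher heat shock protein genes became 7 under the study's threshold, 9 with DESeq2 and 8 with the length and GC correction. In sgScr against control, 3137 genes were lower, against 1553 with the replicate block. Its 5 higher heat shock protein genes became 2 with the block, and its 2 lower ones became 1 with library size alone, 1 with the block and 0 with the length and GC correction. With HSPA1A and HSPA1B summed as 1 gene, 2 heat shock protein genes were lower in sgFOS against sgScr. Summed in this way, 3 were higher in sgScr against LA and 4 in sgScr against control. The cause of these shifts was not tested.

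Leaving out 1 library at a time gave 185 to 2383 genes higher and 68 to 2695 lower in LA against control (heat shock protein genes 0 to 0 higher, 0 to 2 lower), 1022 to 1843 and 894 to 1675 in sgFOS against sgScr (1 to 1 and 1 to 3), 171 to 4938 and 218 to 4988 in sgScr against LA (2 to 9 and 0 to 0), and 3 to 6059 and 0 to 5656 in sgScr against control (0 to 6 and 0 to 4). A lone remaining library was taken to vary like the other group. Among differences called in either fit, the sign turned in sgScr against LA without LA replicate 1, where the values ran from −0.42 (without LA replicate 2) to 0.39 for HSF2, from −0.18 to 0.22 for DNAJA1 and from −0.76 to 1.10 for FOS, and in sgScr against control with the length and GC correction for HSPB1 (0.24). Differences called in neither fit also changed sign, mostly in LA against control: HSPA1A went from −0.24 to 0.22, HSPA1B from −0.17 to 0.21 and HSPH1 from 0.22 to −0.35 with the length and GC correction, and HSP90AA1 went from −0.21 to 0.24 and HSPD1 from −0.34 to 0.10 without LA replicate 2.

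Replicate numbers did not pair the samples: deviations of same-numbered libraries correlated at −0.28 in LA against control and −0.16 to 0.05 elsewhere. In sgScr against LA the block ended the calls of HSP90AB1 (adjusted p = 0.0745) and HSPB1 (0.171) and added HSPE1 (0.0338). The crossed replicate block in LA against control, chosen after seeing the data, gave 1977 genes higher and 1901 lower.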

Other observations

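HSPA6, a strictly inducible HSP70 gene that is hardly expressed in unstressed cells, was counted at 11 and 10 reads in control, 15 and 6 in LA, 24, 27 and 36 in sgScr and 11 and 9 in sgFOS. It was picked after its values were seen and lies under the count minimum set for naming genes. All 3 sgScr libraries lay above the other 6. In sgFOS against sgScr it was lower by −1.13 ± 0.39 (edgeR's quasi-likelihood test, adjusted p = 0.0338) and was not called with DESeq2.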
